A study of Homo sapiens with 4 samples.

Results

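The transcripts of 8 transcription factors that set pancreatic lineage and tumour subtype were followed in SW1990 cells with and without erianin. The factors are GATA6, HNF4A, HNF4G, FOXA1, FOXA2, SOX9, KLF5 and TP63. They were taken as a list of symbols known to mark classical or basal-like pancreatic cancer, each symbol matched 1 gene ID, and the table holds 25798 gene IDs in all. SW1990 is an established human pancreatic adenocarcinoma line, labelled wild type. RNA sequencing of total RNA gave 2 libraries from cells kept for 48 h with 100 nM erianin, a bibenzyl first isolated from Dendrobium orchids, and 2 from cells kept for 48 h with DMSO, its solvent. The labels do not say whether the replicates were separate cultures, so the spread behind each p-value is that of these 4 libraries alone and may be technical.

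GATA6 is a zinc finger factor of endoderm and pancreas, and its expression is a widely used mark of the classical subtype of pancreatic ductal adenocarcinoma. HNF4A and HNF4G are nuclear receptors of gut, liver and pancreas epithelium, and FOXA1 and FOXA2 are forkhead pioneer factors that open chromatin for them. SOX9 marks ductal and progenitor cells, KLF5 is a zinc finger factor of proliferating epithelium, and TP63 encodes p63, the factor of squamous and basal epithelium that marks the basal-like subtype. Classical tumours keep this endodermal programme, while basal-like tumours lose much of it.

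In these cells SOX9, FOXA2, GATA6, KLF5 and FOXA1 were expressed at low to moderate levels, HNF4A was barely detected, and HNF4G and TP63 were at the edge of detection. None of the 6 factors with enough counts to be tested passed the test of erianin against DMSO. FOXA1 and SOX9 had the lowest fold changes, at 0.74 and 0.82 times DMSO, and HNF4A and FOXA2 the highest, at 1.36 and 1.15 times, each with an interval that includes no change.

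Upstream windows are shown for GATA6, which was expressed, for HNF4A, whose gene has a pair of start sites and was nearly silent, and for TP63, which was at 0 in 3 of 4 libraries. The RefSeq table used here (GRCh38.p14) gave windows for 5 of the 8 factors. Each window is the 250 bases before an annotated start, written 5′ to 3′ along the gene. Capitals mark short cores searched on both strands, which were picked with the sequences in view. They are AGATAA for the GATA factors, GTTAAT for the HNF1 factors, TGTTTA for the forkhead factors, CAAAGT for the HNF4 receptors, ACAATG for the SOX factors and CCGCCC for the KLF factors.
GATA6, chr18:22169339-22169588, plus strand: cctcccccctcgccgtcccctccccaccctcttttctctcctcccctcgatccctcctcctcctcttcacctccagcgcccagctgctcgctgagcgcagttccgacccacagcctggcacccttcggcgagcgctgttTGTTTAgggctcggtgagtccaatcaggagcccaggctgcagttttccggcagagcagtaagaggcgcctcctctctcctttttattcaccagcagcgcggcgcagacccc
HNF4A distal start, chr20:44355449-44355698, plus strand: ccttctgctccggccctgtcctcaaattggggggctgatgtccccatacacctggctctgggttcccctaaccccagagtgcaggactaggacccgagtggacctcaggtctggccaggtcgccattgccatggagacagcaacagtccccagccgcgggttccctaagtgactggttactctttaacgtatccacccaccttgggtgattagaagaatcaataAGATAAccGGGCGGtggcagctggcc
HNF4A proximal start, chr20:44400989-44401238, plus strand: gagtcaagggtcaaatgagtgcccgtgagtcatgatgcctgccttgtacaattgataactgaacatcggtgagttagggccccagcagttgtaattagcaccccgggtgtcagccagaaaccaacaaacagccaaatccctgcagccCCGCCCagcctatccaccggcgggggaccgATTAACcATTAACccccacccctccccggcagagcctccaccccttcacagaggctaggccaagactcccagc
TP63, chr3:189631139-189631388, plus strand: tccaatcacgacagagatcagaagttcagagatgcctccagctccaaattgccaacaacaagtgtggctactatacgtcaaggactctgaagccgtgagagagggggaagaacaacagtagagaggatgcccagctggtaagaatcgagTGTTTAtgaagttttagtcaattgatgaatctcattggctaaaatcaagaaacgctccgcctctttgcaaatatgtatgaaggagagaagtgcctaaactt

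The GATA6 window has a GC content of 64.4% and 1 forkhead core, TGTTTA, which 11% of all 35116 RefSeq windows of this length hold. The distal HNF4A window (GC content 58.4%) has 1 GATA core, found in 9.17% of all windows, and 1 KLF core, found in 42.6%. The proximal HNF4A window (58%) has 2 HNF1 cores, found at least once in 6.23% of all windows, and 1 KLF core. The TP63 window (44%) has 1 forkhead core and lies before the upstream start of the gene. The median GC content of all windows was 58%. HNF4 and SOX cores, held by 10.3% and 9.29% of all windows, did not occur in these 4. Such a match describes the letters in a window and shows no binding.

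The cells carried the keratins of ductal epithelium. Of 9 duct markers, 7 had at least 1 FPKM (fragments scaled by transcript length and library depth, the authors' unit) in all 4 libraries, and KRT8 stood at 2627, 2613, 2648 and 3030 FPKM in the libraries, in the order DMSO replicate 1, DMSO replicate 2, erianin replicate 1, erianin replicate 2. EPCAM was low, at 1.48 to 3.5 FPKM. The duct markers below 1 FPKM were CFTR, at 0.18 to 0.41 FPKM, and SPP1, at 0.53 to 0.74 FPKM. The summed level of the acinar list was 0.07 to 0.35 FPKM and of the endocrine list 0.5 to 0.94 FPKM, the latter all from SYP. Fibroblast markers summed to 5.58 FPKM in DMSO replicate 1 and to 1.29 to 1.69 FPKM in the other 3 libraries. The deposited counts added up to between 59923935 and 63336545 per library. Blood markers summed to 100.8 to 112.5 FPKM, nearly all from CD68, and endothelial markers to 0.16 to 0.4 FPKM. In bulk RNA, fewer cells of a type and less RNA per cell cannot be told apart.

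Levels between genes were compared in FPKM. SOX9 was the highest of the 8, with a mean of 6.09 FPKM over the 4 libraries and rank 5537 among all gene IDs. FOXA2 (3.36 FPKM, rank 7072) and GATA6 (2.87 FPKM, rank 7456) followed, and their ranges over the libraries overlapped. KLF5 (1.66 FPKM, rank 9098) and FOXA1 (1.06 FPKM, rank 10377) came next and overlapped too. HNF4A stood at 0.118 FPKM, HNF4G at 0.03 FPKM and TP63 at 0.01 FPKM. The ranges of SOX9 and FOXA2, of GATA6 and KLF5, and of FOXA1 and HNF4A did not overlap, whereas those of HNF4G and TP63 did. The order was the same when CPM (counts scaled to library depth with TMM factors) was divided by the length of each gene's longest transcript. For scale, 9559 gene IDs had at least 1 FPKM in every library, among them SOX9, FOXA2, GATA6 and KLF5, and their median was 8.36 FPKM.

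Erianin was set against DMSO to ask which of the 8 transcripts differed in level after exposure. Over all genes, 7 of 17090 tested (0.041%) passed edgeR's quasi-likelihood test at an adjusted p under 0.05. Of the 8 factors 6 had enough counts to be tested, and 0 of 6 passed. None had an unadjusted p under 0.05 either, against 8.1% of all genes tested, and 0 of 6 passed with DESeq2 or limma-voom. In 4 of the 6 (HNF4A, FOXA1, FOXA2 and SOX9) the CPM of the erianin libraries did not overlap that of the DMSO libraries, which 46.1% of all genes tested also showed.

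**Figure D1:**
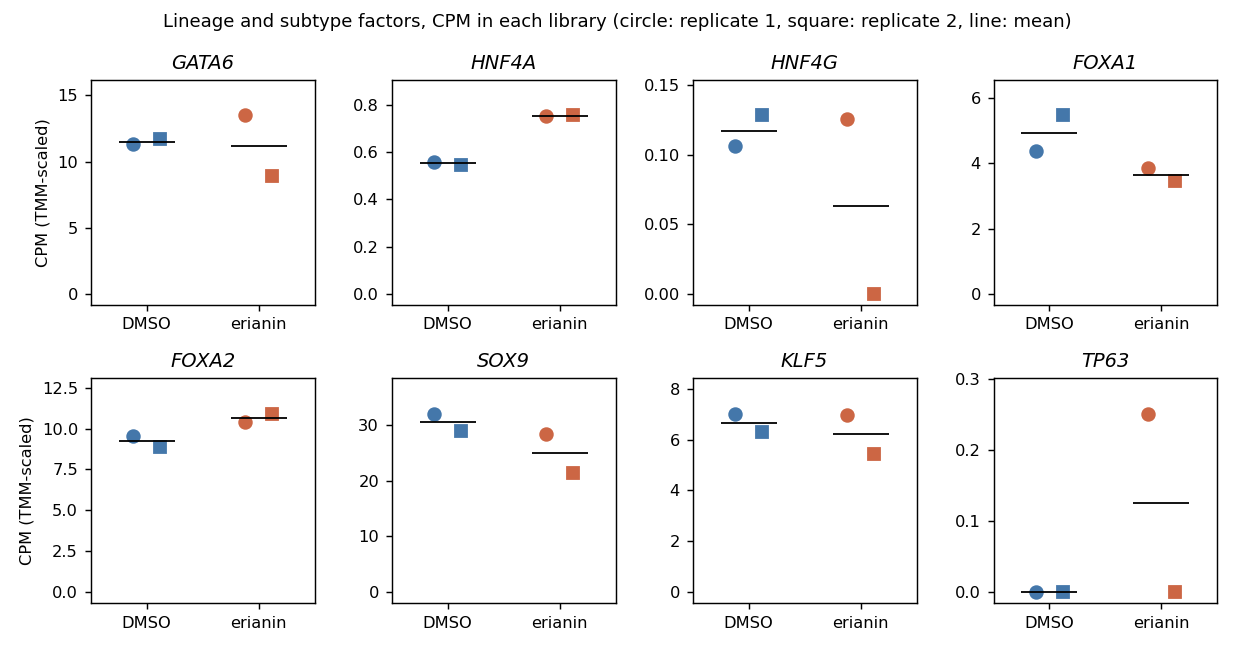
CPM (TMM-scaled, y axis from near 0, own scale in each panel) of the 8 factors in each of the 4 libraries, with circles for replicate 1, squares for replicate 2 and lines for group means. GATA6, SOX9, KLF5 and FOXA1 are lowest in erianin replicate 2, and HNF4A and FOXA2 are higher in both erianin libraries than in both DMSO libraries.

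GATA6 (ENSG00000141448, GRCh38 chromosome 18, 22169443 to 22202528, plus strand) had 11.3 CPM and 11.7 CPM with DMSO, and 13.5 CPM and 8.93 CPM with erianin, replicate 1 first in each pair. The erianin libraries lay on either side of both DMSO libraries. Its DMSO mean was 11.5 CPM ± 0.26 and its erianin mean 11.2 CPM ± 3.23 (SD over n = 2 libraries). The log2 fold change was -0.04 ± 0.22 (SE), with a 95% interval from -0.54 to 0.46 and an adjusted p of 0.962 (edgeR). It was 0.23 without erianin replicate 2 and -0.38 without erianin replicate 1. GATA6 shares 240 exon bases with GATA6-AS1 on the opposite strand, a noncoding gene with 10, 23, 34 and 11 counts, against 748, 730, 859 and 496 counts for GATA6, and 321 with AC091588.3 on that strand. Whether counting used strand is not given in the sources used here, and reads of the shared part cannot be told apart without it.

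The forkhead pair went to opposite sides of 0. FOXA1 (ENSG00000129514, chromosome 14, 37589984 to 37596059, minus strand) had 4.38 and 5.47 CPM with DMSO, against 3.85 and 3.46 CPM with erianin. Both erianin libraries were below both DMSO libraries, and the DMSO libraries differed by 0.32 on the log2 scale. Its log2 fold change was -0.43 ± 0.24 (SE), with a 95% interval from -0.98 to 0.12 and an adjusted p of 0.578 (edgeR). It stayed below 0 in each fit that left out 1 library, from -0.58 to -0.26.

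FOXA2 (ENSG00000125798, chromosome 20, 22581005 to 22585455, minus strand) had 9.54 and 8.9 CPM with DMSO, against 10.4 and 10.9 CPM with erianin. Both erianin libraries were above both DMSO libraries. The log2 fold change was 0.21 ± 0.16 (SE), with a 95% interval from -0.17 to 0.59 and an adjusted p of 0.655 (edgeR). The FPKM of FOXA1 was 0.331 and 0.444 of that of FOXA2 with DMSO, against 0.268 and 0.228 with erianin, a log2 difference of -0.63. This was 1 of 3 ratios between factors that were computed. GATA6 over SOX9 was 0.403 and 0.469 with DMSO, against 0.543 and 0.482 with erianin (log2 difference 0.24). KLF5 over SOX9 was 0.257 and 0.255 with DMSO, against 0.288 and 0.3 with erianin (log2 difference 0.20). In all 3 the groups did not overlap. For FOXA1 over FOXA2 this followed from FOXA1 being lower and FOXA2 higher in both erianin libraries. The other 2 ratios share SOX9, which was lower in both erianin libraries. How often ratios of other genes fail to overlap was not computed. Each of the 3 had an exact two-sided permutation p of 0.333, also after adjustment over the 3. That is the smallest p that 2 libraries against 2 allow, so none could pass.

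SOX9 (ENSG00000125398, chromosome 17, 72121020 to 72126420, plus strand) had 32 and 28.9 CPM with DMSO, against 28.4 and 21.3 CPM with erianin. Erianin replicate 1 lay just below DMSO replicate 2, and erianin replicate 2 lay apart from the other 3 libraries. The log2 fold change was -0.29 ± 0.17 (SE), with a 95% interval from -0.69 to 0.10 and an adjusted p of 0.589 (edgeR). SOX9 was the sole factor that passed in any alternative fit. Without erianin replicate 1 its log2 fold change was -0.53 with an adjusted p of 0.0254 (edgeR), in a fit in which 3166 genes passed and the remaining erianin library was assumed to vary like the DMSO libraries. Over the other alternatives, the smallest adjusted p of SOX9 was 0.0867, in the fit without erianin replicate 1 and without the GC and length trend. Without erianin replicate 2 the log2 fold change was -0.10.

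KLF5 (ENSG00000102554, chromosome 13, 73054976 to 73077542, plus strand) had 7.01 and 6.28 CPM with DMSO, against 6.97 and 5.45 CPM with erianin, and the groups overlapped. Its log2 fold change was -0.10 ± 0.21 (SE), with a 95% interval from -0.59 to 0.40 and an adjusted p of 0.888 (edgeR).

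Erianin replicate 2 held the lowest CPM of GATA6, FOXA1, SOX9 and KLF5, 4 of the 6 factors tested, as it did for 37.3% of all genes tested. Between the erianin libraries the log2 difference (replicate 2 less replicate 1) was -0.60 for GATA6, -0.42 for SOX9, -0.35 for KLF5, -0.16 for FOXA1 and 0.07 for FOXA2. Between the DMSO libraries it was 0.05, -0.15, -0.16, 0.32 and -0.10. For GATA6, SOX9 and KLF5 the gap between the erianin libraries was larger than the difference between the groups. Across genes, fold changes rose with GC content by 0.18 per 10 percentage points (7968 genes averaging 3 or more in log2 CPM).

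The 6 factors tested have GC contents from 47% to 58.2%, so each was read beside this trend in 2 ways. Once the dependence on GC content and transcript length was taken out of each library, the log2 fold change was -0.45 for FOXA1, -0.27 for SOX9, 0.48 for HNF4A, -0.11 for GATA6, 0.05 for FOXA2 and 0.02 for KLF5. The first 3 moved by less than 0.05, FOXA2 came close to 0, and KLF5 crossed it. Genes within 2 percentage points of a factor in GC content had median log2 fold changes of 0.01 for FOXA1, 0.01 for SOX9, 0.06 for HNF4A, 0.11 for GATA6, 0.13 for FOXA2 and -0.12 for KLF5. Of these neighbours 3.2% lay below FOXA1, 8.94% below SOX9, 18.2% below GATA6, 54.1% below KLF5, 75.5% below FOXA2 and 97.5% below HNF4A. FOXA1, SOX9 and HNF4A thus lay toward the ends of their neighbours' values, and KLF5 near the middle. The neighbours were matched on GC content and not on level, and HNF4A (SE 0.52) and FOXA1 (SE 0.24) had the largest errors of the 6. Such places therefore do not show that a factor stands out from genes of like level.

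**Figure D2:**
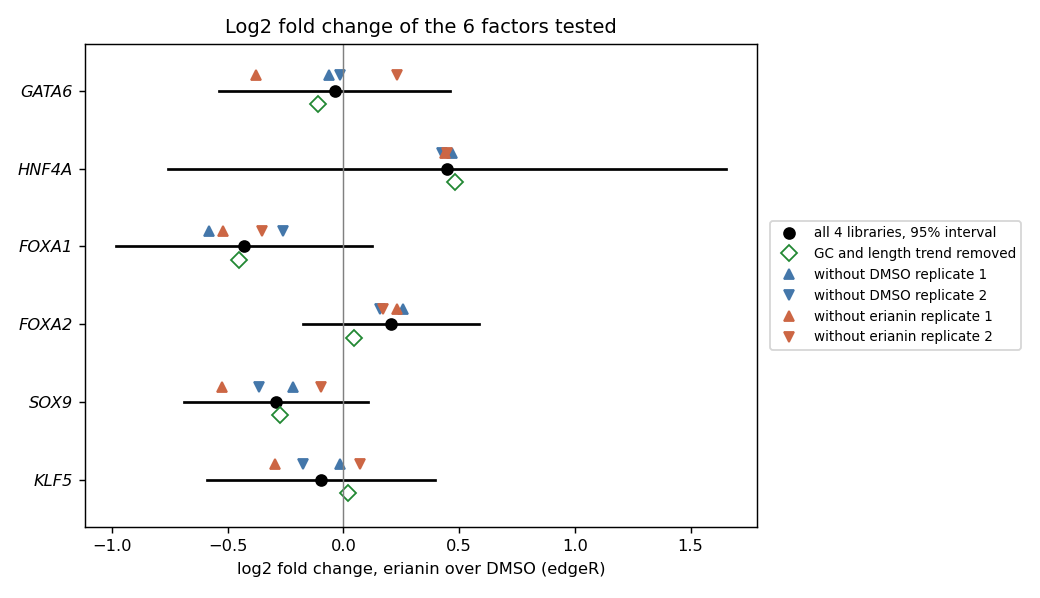
Log2 fold change of erianin over DMSO (x axis) for the 6 factors tested, with the edgeR estimate and its 95% interval in black, the value with the GC and length trend removed as an open diamond, and the 4 fits that left out 1 library as triangles. Each interval includes 0, and GATA6 and KLF5 change sign without erianin replicate 2.

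HNF4A (ENSG00000101076, chromosome 20, 44355700 to 44434596, plus strand) had 37 and 34 counts in DMSO and 48 and 42 in erianin, with exact 95% Poisson intervals of 26.1 to 51, 23.5 to 47.5, 35.4 to 63.6 and 30.3 to 56.8. These cover counting error only. In CPM it stood at 0.561 and 0.545 in DMSO and 0.754 and 0.756 in erianin, so the groups did not overlap, while the intervals of the counts did. The log2 fold change was 0.45 ± 0.52 (SE), with a 95% interval from -0.76 to 1.65 and an adjusted p of 0.761 (edgeR). At this depth no change within that interval was excluded.

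The table holds several unnamed rows for many gene IDs, and HNF4A has 4. Both DMSO libraries had 100% of the HNF4A counts in the second of these rows, where both erianin libraries had 0. Erianin replicate 1 had 100% and erianin replicate 2 88.1% in the first row, where both DMSO libraries had 0. Rows carry no transcript name, and count and FPKM implied lengths of 4504 to 4934 bases for the first row and 4694 to 5164 bases for the second, which overlap. For both rows the same annotated transcript, HNF4A-209, was the only 1 of about that length. The rows could therefore not be assigned to a start site or isoform, and each holds fewer than 50 counts per library. Of 867 gene IDs with 20 to 100 counts in every library and more than 1 row, only 450 kept the same largest row in all libraries. In 27 (3.11%) the largest row was shared within each group and differed between the groups. In 6 (0.692%), HNF4A among them, that row also held at least 80% of counts in every library. The switch of HNF4A was noticed in these data, the limits of these counts were set after it had been seen, and it was not tested.

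**Figure D3:**
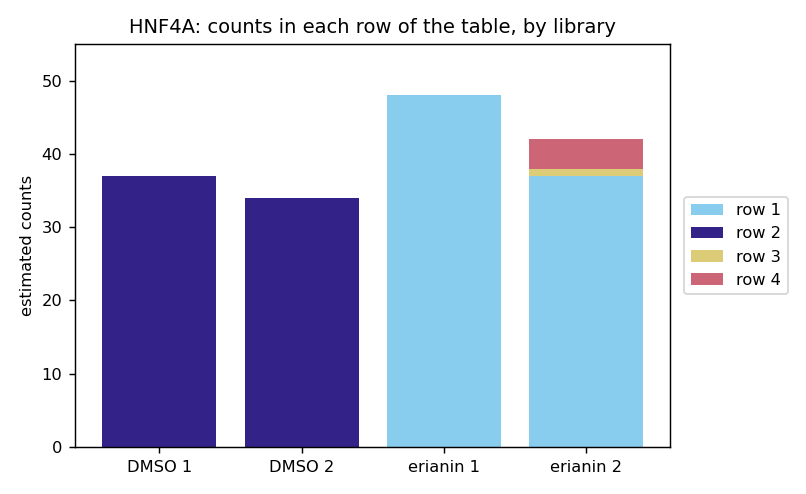
Estimated counts of HNF4A (y axis from 0) in each library, stacked by the row of the deposited table that holds them. Totals of 37, 34, 48 and 42 counts sit in row 2 in the DMSO libraries and mostly in row 1 in the erianin libraries.

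GATA6 also has more than 1 row with counts in every library, and there the split was steady. Its main row held 93.6% and 90.7% of counts in DMSO and 92.3% and 92.1% in erianin. SOX9, KLF5 and FOXA1 have 1 row each, and FOXA2 had at least 98.3% of its counts in its first row.

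HNF4G (ENSG00000164749, chromosome 8, 75407914 to 75566843, plus strand) had 7 and 8 counts in DMSO and 8 and 0 in erianin. TP63 (ENSG00000073282, chromosome 3, 189631416 to 189897279, plus strand) had 0 counts in both DMSO libraries, 16 in erianin replicate 1 and 0 in erianin replicate 2. For a count of 0, a limit of 3 counts was set, which is 0.0455 to 0.054 CPM in these libraries. The exact 95% Poisson interval of 0 counts reaches a little higher, to 3.69 counts. The 16 counts of TP63 (exact 95% Poisson interval 9.15 to 26) were 0.251 CPM. In the main fit neither gene passed the filter on low counts, and without that filter neither passed the test (edgeR, adjusted p = 0.912 for HNF4G and 0.724 for TP63). TP63 did pass the filter when DMSO replicate 1, DMSO replicate 2 or erianin replicate 2 was left out. Its log2 fold changes there were 5.97, 5.99 and 7.02, all resting on the 16 counts of erianin replicate 1. TP63 counts in 1 of 2 erianin libraries show a difference between those libraries as much as between the groups.

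Among other factors of endoderm and pancreas, levels ran from above that of SOX9 down to nearly 0. Of 27 listed genes 18 have a row, 6 had at least 1 FPKM in all libraries, and 14 were tested. HES1, a Notch target, had 11.3, 10.8, 10.7 and 8.86 FPKM. HHEX, an early foregut factor, had 4.81, 4.43, 3.69 and 3.52 FPKM, a log2 fold change of -0.30 ± 0.18 (SE). PDX1, the factor that specifies pancreas, was listed at 0, 0, 0.02 and 0 FPKM. Of the 14 tested none passed, with 7 on each side of 0 and a median log2 fold change of -0.03 (-0.09 with the GC and length trend removed). Over all genes tested the median was -0.01, and 48.7% lay above 0.

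The families of the 8 factors were represented by other members as well. GATA2 was the highest GATA gene, at 20.1 and 22.3 FPKM in DMSO and 24.8 and 21.6 FPKM in erianin, above GATA3 (4.26 to 5.48 FPKM), GATA4 (4.04 to 5.45 FPKM) and GATA6 (2.06 to 3.44 FPKM). FOXA3, the third member of the FOXA genes, was at 0.03 to 0.11 FPKM. KLF6 had 3.34 and 3.01 FPKM in DMSO and 2.55 and 1.96 FPKM in erianin, with a log2 fold change of -0.38 ± 0.16 (SE) and an adjusted p of 0.575 (edgeR). Taking out the GC and length trend gave -0.20. TP73, a relative of TP63, had 0.26 to 0.36 FPKM. Of the 12 relatives tested none passed, 8 lay above 0, and the median log2 fold change was 0.08, or 0.0049 with that trend removed.

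Of 6 noncoding genes antisense to or beside the 8 factors, 3 have a row and were tested, and none passed, with a median of -0.15 (-0.03 with the GC and length trend removed). SOX9-AS1 had 5, 19, 8 and 12 counts.

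Epithelial factors included PPARG, a nuclear receptor, at 22.6, 23.2, 23 and 17.6 FPKM, and ELF3, an epithelial ETS factor, at 7.8 and 8.35 FPKM in DMSO and 8.88 and 9.06 FPKM in erianin. ELF3 had a log2 fold change of 0.22 ± 0.14 (SE). GRHL2 and OVOL1, other epithelial factors, were at no more than 0.04 FPKM. Of 11 tested none passed, and 7 lay above 0, with a median of 0.14 (0.17 with the GC and length trend removed).

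Of 19 listed factors of the basal or mesenchymal state 18 have a row, and 6 had at least 1 FPKM in all libraries. The highest was FOSL1, an AP-1 subunit, at 245 and 242.7 FPKM in DMSO and 265.8 and 285.7 FPKM in erianin. Its log2 fold change of 0.27 ± 0.11 (SE) was 0.07 with the GC and length trend removed. HIF1A, the oxygen-regulated factor, had 27.9 and 28.2 FPKM in DMSO and 22.2 and 15.4 FPKM in erianin, a log2 fold change of -0.49 ± 0.13 (SE) with an adjusted p of 0.575 (edgeR). It was -0.28 with that trend removed. GLI2, a Hedgehog factor linked to the basal-like state, was at 0.35 and 0.43 FPKM in DMSO and 0.25 and 0.21 FPKM in erianin. SNAI1 was at 3.85 to 4.74 FPKM, whereas ZEB1 (0.45 to 0.87), SNAI2 (0.13 to 0.64), ZEB2 (0.02 to 0.09) and TWIST1 (0 to 0.07) were below 1 FPKM. None of 16 tested passed, 12 lay below 0, and the median was -0.07, or -0.03 with the trend removed.

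Genes that define the subtypes in tumours were present from both sides. Of 24 classical genes 16 have a row and 4 had at least 1 FPKM in every library. These were the trefoil factor genes TFF2 (46.9 to 56.1 FPKM) and TFF1 (12 to 14 FPKM), AGR2, a secretory protein disulfide isomerase (25.2 to 27 FPKM), and the tetraspanin gene TSPAN8 (9.53 to 11.9 FPKM). Of 25 basal-like genes 16 have a row and 7 reached that level, among them the keratin gene KRT7 (1116 to 1235 FPKM) and the noncoding RNA UCA1 (172.7 to 180.8 FPKM). ANXA8L1, an annexin gene, had 17.3 to 19.4 FPKM and belongs to a family of close copies, so its value is uncertain.

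Neither subtype list had a member past the test in either direction, with 8 classical and 12 basal-like genes tested. The medians were 0.20 and 0.10, or 0.25 and 0.06 with the GC and length trend removed, and 7 of 8 and 7 of 12 lay above 0. The classical genes tested include CTSE, ANXA10, SPINK4 and ST6GALNAC1, each below 1 FPKM in every library, with SEs from 0.70 to 1.59. Low basal-like genes tested, such as CST6 (SE 1.47), had large errors too. These counts and medians thus rest in part on poorly measured genes. TNS4, a focal adhesion gene on the basal-like list, had the smallest p of both lists. It was at 5.62 and 5.25 FPKM in DMSO and 6.59 and 7.26 FPKM in erianin. Its log2 fold change was 0.52 ± 0.16 (SE), with an adjusted p of 0.575 (edgeR), and 0.42 with that trend removed. TFF1 and TSPAN8 had log2 fold changes of 0.20 each, and with the trend removed they were -0.01 and 0.38.

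**Figure D4:**
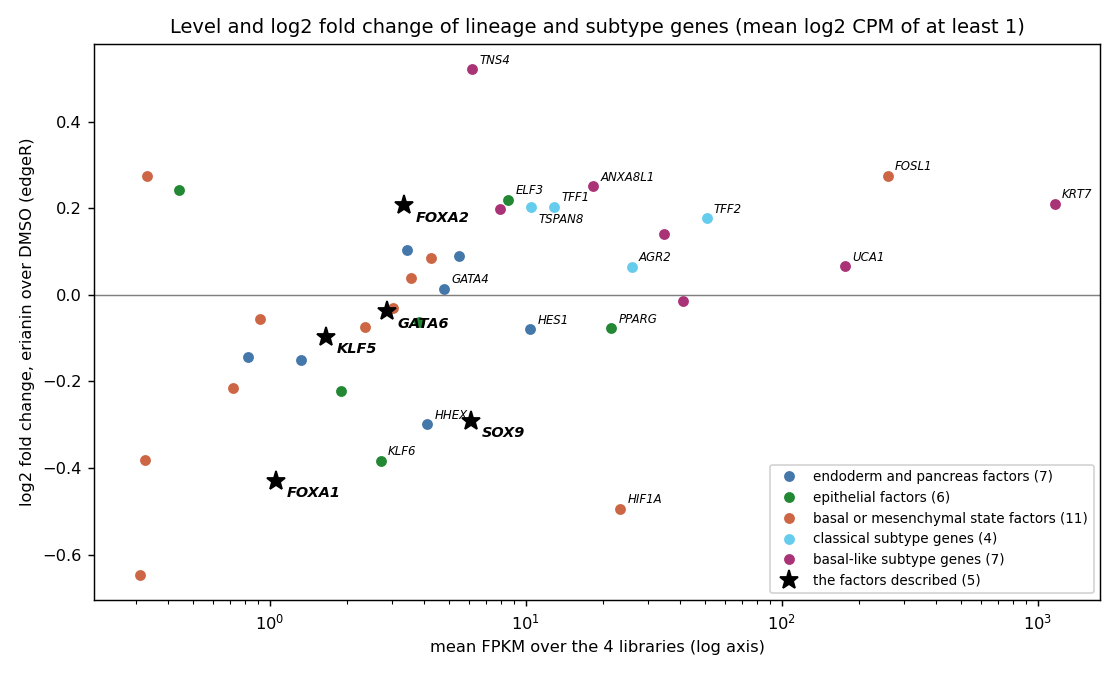
Mean FPKM over the 4 libraries (x axis, log scale) against the log2 fold change of erianin over DMSO (y axis) for lineage factors and subtype genes averaging 1 or more in log2 CPM, coloured by list, with 5 of the 8 factors as black stars. None of the genes drawn passed the test, and the stars lie between 1.06 and 6.09 FPKM, left of KRT7, FOSL1 and UCA1.

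Known targets of HNF4A and p63 were read beside the factors. Of 10 HNF4 targets 7 have a row and 2 were tested. SERPINA1, the alpha-1 antitrypsin gene, had 6.38 and 5.43 FPKM in DMSO and 8.09 and 6.3 FPKM in erianin (log2 fold change 0.24 ± 0.15, SE), and the other tested, VIL1, was at no more than 0.05 FPKM. APOC3, a liver apolipoprotein gene, was at 0.13 FPKM in DMSO replicate 1 and listed at 0 in the other libraries. Of 10 p63 targets 8 were tested, 4 on each side of 0 and none past the test, with a median of -0.04 (0.03 with the GC and length trend removed). ITGB4, an integrin of hemidesmosomes, had 39.7 and 39.6 FPKM in DMSO and 46.4 and 42.1 FPKM in erianin, a log2 fold change of 0.25 ± 0.09 (SE), or 0.17 with that trend removed. PERP, a desmosome gene, had 17.4 and 17.5 FPKM in DMSO and 15.9 and 12.7 FPKM in erianin. KRT5, the basal keratin, had 4.01 to 5.56 FPKM while TP63 was at or near 0.

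Each tested factor was set beside 49 list genes by the root mean square difference of log2 CPM, centred per gene over the 4 libraries. The closest were KLF4 for GATA6 (0.0504), SERPINA1 for FOXA2 (0.0361), PPARG for KLF5 (0.0413), SIX4 for SOX9 (0.0693), ITGB4 for HNF4A (0.0992) and GLI2 for FOXA1 (0.109). With 4 libraries this only describes which profiles lay near each other.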

How the data were processed

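Total RNA of 4 SW1990 libraries was sequenced, and groups came from the sample titles. Per the submitters' processing notes, GRCh38, featureCounts 2.0.1, StringTie 2.2.1, STAR and fastp were used, in no stated role. Neither annotation nor strandedness is given in the sources used here. The authors deposited whole-number estimated counts without normalization in 107429 rows, and per the file headers the second table holds FPKM. Rows were summed per gene ID. The design had assumed plain counts. Symbols were matched through the supplied name table (25779 IDs), positions, lengths and GC content from GENCODE 29 on GRCh38 (24725 IDs), and promoter windows from RefSeq. Coordinates are 1-based.

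The test was edgeR 4.0.16 (R 4.3.3) with TMM factors, filterByExpr (minimum count 10; 17090 genes kept), a quasi-likelihood F test over 2 residual degrees of freedom and Benjamini-Hochberg adjustment over all genes, with a threshold of 0.05. Each standard error came from the estimate and its F statistic. The trend with GC content and length was fitted per library with splines (natural, 5 degrees of freedom) over genes averaging 3 or more in log2 CPM. The edgeR step was tested on simulated data in 2 ways. With gene-wise dispersions it missed the recovery of large changes that had been required, and false calls were more frequent. A simulation with trended dispersions was then added, and it met that requirement narrowly. Median estimates lay close to the simulated fold changes in both, and part of the changed genes was missed in both. Alternatives used DESeq2 1.42.0 and limma 3.58.1. BLAST+ 2.17.0 among GENCODE transcripts found no other gene sharing 200 bases at 95% identity with the factors, apart from genes opposite GATA6. The members and lists were chosen with earlier results of these data known. Genes named from each list were the 2 with the smallest p, as none passed (averaging 1 or more in log2 CPM), and the 2 highest in DMSO by FPKM. Some genes that this rule names are not reported here, though the counts and medians of their lists include them. Other genes, the 3 ratios, the limits of the row comparison, the promoter motifs, the GC-matched medians and the share of genes lowest in 1 library were chosen after values were seen. Library totals give the depth. The Poisson intervals of counts cover counting error only, while the intervals of fold changes come from the quasi-likelihood fit and include the spread between libraries.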

Additional observations from a re-analysis of the deposited data

How the results depend on the processing

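With 2 libraries a group, 0 of 6 factors passed in the main fit. The alternatives tested 5 to 8 factors, and none passed except SOX9 in the fit without erianin replicate 1 (log2 fold change -0.53). Leaving out 1 library gave 0 to 1 factors and 24 to 3166 genes past the threshold, in place of 7 genes. With the GC and length trend removed as well, a combination chosen after seeing the data, it gave 12 to 692 genes (12 and 37 when DMSO replicates 1 and 2 were dropped, 692 and 25 when erianin replicates 1 and 2 were) and 0 factors. The gene count was 2 with library totals alone, 21 with the DESeq2 Wald test, 0 with limma-voom, 2 with limma on log2(FPKM + 0.1) or on log2(FPKM + 1), and 1 on log2(FPKM + 0.1) without a filter. FOXA1 and SOX9 lay below 0 in all 21 alternatives and HNF4A above 0 in all 20 that tested it. Leaving out 1 library gave -0.38 to 0.23 for GATA6, -0.30 to 0.07 for KLF5, 0.16 to 0.26 for FOXA2 and 0.43 to 0.47 for HNF4A. SOX9 ranged from -0.53 to -0.10 and FOXA1 from -0.58 to -0.26. KLF5 turned to 0.018 with the GC and length trend removed, and to 0.070 without erianin replicate 2. Leaving out 1 library with that trend removed gave -0.46 to 0.17 for GATA6, -0.08 to 0.11 for KLF5 (0.086 without DMSO replicate 1) and -0.023 to 0.12 for FOXA2. The cause of these changes was not tested.

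The replicate numbers are shared by both groups, but no label says that they pair the libraries. Deviations of same-numbered libraries from their group means had a correlation of 0.222 across 7986 genes. With the replicate block 334 genes and 0 factors passed, and with the GC and length trend removed too, 14 genes and 0 factors, with KLF5 at 0.016.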
